A study of Mus musculus with 25 samples.

Results

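The genes described here encode the subunits of the mitochondrial oxidative phosphorylation complexes in mouse liver. They were chosen by symbol: genes beginning with Nduf followed by a, b, c, s or v and a digit, Sdha to Sdhd, genes beginning with Uqcr, Cox4 to Cox8 or Atp5, and the mitochondrial genes beginning with mt-Nd, mt-Co, mt-Cytb or mt-Atp. The symbols matched 107 genes, of which 10 were annotated as pseudogenes and left out. Of the remaining 97 genes, 91 had more than 1 CPM (the count scaled to the library total) in at least 2 libraries, and these 91 are the members among the 14065 genes kept of 41388 listed. The nuclear genome encodes 78 of them and the mitochondrial genome 13. Complex I has 42 members, complex II 4, complex III 9, complex IV 17 and complex V 19. Ndufa4, Ndufa4l2 and Cox7a2l were placed with complex IV, and Atp5s, which is not a structural part of the enzyme, with complex V.

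Oxidative phosphorylation is the last stage of fuel oxidation in the inner mitochondrial membrane. Complexes I and II pass electrons from NADH and succinate to coenzyme Q, complex III passes them on to cytochrome c, and complex IV passes them to oxygen, while complexes I, III and IV pump protons that complex V uses to make ATP. The subunits of complex II are all nuclear genes, whereas the other complexes need both genomes, and hepatocytes are rich in mitochondria because they oxidise fatty acids, make ketone bodies and synthesise glucose. NAMPT, the enzyme delivered in this study, is the rate-limiting step of the pathway that recycles nicotinamide to NAD, the electron carrier that complex I oxidises, and SIRT1 is a deacetylase that consumes NAD.

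Liver RNA of 25 male C57B/6J mice aged 20 weeks was sequenced with single reads of 50 bases. All mice carried floxed Sirt1 alleles, and all had received an AAV8 vector by tail vein, in which a thyroxine-binding globulin promoter restricts expression largely to hepatocytes. The groups were chow-fed wild-type mice with the empty vector (chow WT EV, n = 3), and Western diet-fed wild-type mice with the empty vector (WD WT EV, n = 6) or NAMPT (WD WT NAMPT, n = 6). The last groups were Western diet-fed mice labelled SIRT1 LKO, in which Albumin-Cre removes the floxed part of Sirt1 in hepatocytes, with the empty vector (WD LKO EV, n = 5) or NAMPT (WD LKO NAMPT, n = 5). The wild-type mice were floxed littermates without Cre, and the diet lasted 12 weeks. The labels number the libraries within a group and do not name animals, so the p-values measure the spread between these libraries.

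Libraries held 20166175 to 32937326 counts assigned to genes. Sirt1 counts did not separate the genotypes: the mean was 8.56 CPM in WD LKO EV and 8.84 CPM in WD WT EV, a log2 difference of -0.07 ± 0.10 (SE; limma, adjusted p = 0.99), and a count over the whole gene cannot show the loss of an exon. Nampt had a mean of 47.3 CPM in WD WT EV and 59.4 CPM in WD WT NAMPT (log2 difference 0.34 ± 0.16, limma, adjusted p = 0.14), and 56.0 and 79.8 CPM in the corresponding LKO groups (0.41 ± 0.16, limma, adjusted p = 0.40). The sources used here do not say whether the delivered NAMPT sequence would be counted with the mouse gene. Hepatocyte markers were abundant in every group and adipocyte and skeletal muscle markers were not kept. The fit gave the lowest weights to WD WT NAMPT replicate 6 (0.336), WD WT NAMPT replicate 2 (0.401) and WD LKO NAMPT replicate 3 (0.410), 3 libraries that recur below.

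Levels between genes were compared in RPKM, the counts scaled to exon length and library size by the authors, averaged over the 6 WD WT EV libraries. The nuclear members had a median of 89.9 RPKM. By complex, the median was 58.5 RPKM for the 35 nuclear subunits of complex I, 103 for the 4 of complex II, 151 for the 8 of complex III, 177 for the 14 of complex IV and 121 for the 17 of complex V. The nuclear genes of complex I thus stood lowest and those of complex IV highest by median. This order rests in part on scaling to length, since the median exon length was 1322 bases for complex I and 728 for complex IV. In mean log2 CPM, not scaled to length, complex I was again lowest (6.23). Complex II was then highest (7.82), and complex IV had 6.70. Among the core subunits, Ndufs1 and Ndufv1, which carry redox centres of the complex I arm that accepts electrons from NADH, had 11.2 and 53.6 RPKM. The flavoprotein Sdha and the iron-sulfur subunit Sdhb of complex II had 128 and 88.0 RPKM. In complex III, the core proteins Uqcrc1 and Uqcrc2 had 164 and 73.7 RPKM and the Rieske iron-sulfur protein Uqcrfs1 139. In complex IV, Cox4i1 and Cox5a had 180.5 and 173 RPKM, and the catalytic beta subunit of complex V, Atp5b, had 234. Within the complex I genes the range ran from 1.24 RPKM for Ndufb2 to 297.7 for Ndufb9. The RPKM of Ndufb2 and Ndufs1 rest on exon lengths of 5628 and 8086 bases, against a median of 1328 over the nuclear members, and Ndufs1 had 90.8 CPM against 135 for Ndufv1 before scaling to length.

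Several subunits exist as isoforms encoded by separate genes, and for most of these sets the liver libraries held mainly one gene. Cox6a1 (635 ± 40.6 RPKM, SD, n = 6), Cox8a (595 ± 38.9) and Cox6b1 (371 ± 27) were among the highest nuclear members. Their relatives expressed in heart and muscle or testis were not kept: Cox6a2 reached 26 counts in its highest library, Cox8b 5, Cox8c 1 and Cox6b2 54. Cox4i2, the counterpart of Cox4i1 known from lung, reached 18 counts, and Cox7b2 had 0 in every library, which allows up to 3 counts per library. Cox7a2 had 156.5 ± 10.8 RPKM, its relative Cox7a2l, which helps complexes III and IV to associate, 68.5 ± 4.47, and the muscle isoform Cox7a1 3.74 ± 1.07. Ndufa4 had 586 ± 45.0 RPKM and Ndufa4l2, known from hypoxic cells, 1.39 ± 0.335. Atp5g1, Atp5g2 and Atp5g3, which encode the same mature c subunit of the complex V rotor, were all present, with 40.3 ± 5.11, 51.5 ± 2.38 and 142.6 ± 10 RPKM. The order of Atp5g1 and Atp5g2 rests on their exon lengths of 4912 and 1675 bases. Before scaling to length, the highest of all libraries had 293.5 CPM for Atp5g1 and 94.9 CPM for Atp5g2. Atp5s was the lowest gene of complex V at 2.95 ± 0.638 RPKM.

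The mitochondrially encoded members spanned a wider range, with a median of 2018 RPKM. The highest were mt-Cytb, the cytochrome b of complex III (12901 RPKM), and mt-Co1, the catalytic subunit of complex IV (12819). The complex I genes mt-Nd1, mt-Nd2, mt-Nd5 and mt-Nd4 followed at 9879, 6791, 4725 and 3458 RPKM, and mt-Nd6, the only member on the other strand of the mitochondrial genome, had 2018. The lowest were mt-Atp6 (543), mt-Co2 (372), mt-Nd4l (369), mt-Co3 (335), mt-Atp8 (175) and mt-Nd3 (138). These low values have to be read with the counting, in which the authors kept only reads that mapped to 1 place. Of all 50-base windows in the transcripts, those of mt-Co2 recurred in another annotated transcript in 100% of cases, and those of mt-Co3, mt-Atp6, mt-Nd4l and mt-Nd3 in 99.9%, 99.5%, 98.8% and 98.0%. The share was 62.2% for mt-Nd4, 51.1% for mt-Co1, 8.2% for mt-Nd2 and 7.6% for mt-Nd5, and 0 for mt-Nd1, mt-Nd6, mt-Cytb and mt-Atp8. The 5 genes with almost all windows shared had 138 to 543 RPKM. The low mt-Atp8 has no such windows, but 21% of its length overlaps mt-Atp6, where reads are ambiguous. The levels of those 6 mRNAs, and of mt-Nd4 and mt-Co1, relative to the other mitochondrial genes are therefore uncertain. So is the order of mt-Co1 and mt-Cytb, which has no shared windows. A change between groups compares the same windows. For the 5 genes with almost all windows shared, it rests on the reads that could still be placed. Whether these reads follow the mRNA between groups was not tested.

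For these 5 genes, mt-Nd4 and mt-Co1, the best matching copies lie in an insertion of mitochondrial DNA on chromosome 1, annotated as a row of pseudogenes on the minus strand. The windows shared by mt-Nd2 and mt-Nd5 lie mainly in other pseudogenes, Gm13339 on chromosome 2 and Gm4076 on chromosome 13. Gm28661 carries all 681 of 681 aligned bases of mt-Co2, Gm28437 783 of 783 of mt-Co3, Gm10925 678 of 678 of mt-Atp6, Gm10222 294 of 294 of mt-Nd4l and Gm28439 876 of 876 of part of mt-Nd4. Gm28438 matches mt-Nd3 at 344 of 345 bases, and Gm29216 part of mt-Co1 at 486 of 492. The counts of mt-Co2 (4829 to 9036 per library) and Gm28661 (5081 to 10460) were of similar size. Those of Gm10925 (9098 to 33154) exceeded those of mt-Atp6 (5658 to 16019), and Gm28439 (2342 to 11753) and Gm29216 (5435 to 15170) had far fewer than mt-Nd4 (65809 to 277760) and mt-Co1 (280474 to 940615). The sequences below (GRCm38) show the match: over 120 bases mt-Co2 at chrM:7053-7172 (plus strand) cannot be told from Gm28661 at chr1:24615406-24615525 (minus strand), and mt-Nd3 at chrM:9459-9578 (plus strand) differs from Gm28438 at chr1:24613000-24613119 (minus strand) at the base in capitals.
mt-Co2: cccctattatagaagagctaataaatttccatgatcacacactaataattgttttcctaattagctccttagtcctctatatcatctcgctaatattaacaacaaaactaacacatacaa
Gm28661: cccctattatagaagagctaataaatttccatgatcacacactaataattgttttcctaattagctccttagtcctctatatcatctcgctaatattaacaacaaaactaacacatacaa
mt-Nd3: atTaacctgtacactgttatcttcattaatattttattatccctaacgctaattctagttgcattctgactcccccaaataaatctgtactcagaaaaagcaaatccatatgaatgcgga
Gm28438: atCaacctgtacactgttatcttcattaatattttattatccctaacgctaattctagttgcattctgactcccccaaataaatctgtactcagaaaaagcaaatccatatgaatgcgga

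**Figure D1:**
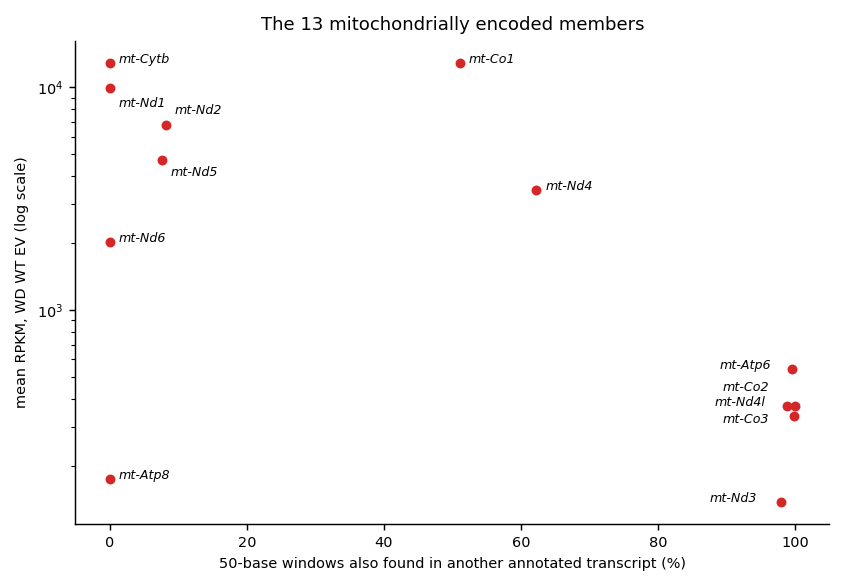
Mean RPKM in the 6 WD WT EV libraries (log axis) against the percentage of a gene's 50-base windows that recur in another annotated transcript, for the 13 mitochondrially encoded members. The 5 genes at 98.0% or more lie between 138 and 543 RPKM, and of the other 8 only mt-Atp8 (175 RPKM) lies that low.

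Nuclear members shared far fewer windows, with a median of 1.3% and none at all in 34 genes. At least 30% were shared in 10 genes. Highest were Atp5l (84.8%), Atp5h (47.9%) and Uqcrb (43.4%), followed by Ndufs3 (39.7%), Atp5f1 (38.7%), Ndufb4 (37.0%), Ndufb6 (34.1%), Atp5o (34.0%), Cox5a (32.0%) and Ndufs5 (31.1%). The transcript that shared most windows was a processed pseudogene for 8 of these, Smim27 for Ndufb6 and the non-coding Gm26631 for Cox5a, and the levels of all 10 are uncertain in the same way.

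Between groups the comparisons below used CPM scaled by TMM factors, which correct for differences in library composition, and limma's moderated test on voom weights with a weight per library, as in the study's methods. The study's figure legend for these data names edgeR's exact test instead, which was run here as an alternative. Each p-value was adjusted over all 14065 genes by the Benjamini-Hochberg method, and a gene is called at an adjusted p of at most 0.05. Fold changes are fitted log2 values ± SE. The question of the first comparison was what delivery of NAMPT changed in wild-type mice on the Western diet.

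In WD WT NAMPT livers, subunit mRNAs were lower than in WD WT EV livers in every complex. Of the 91 members, 26 (28.6%) were called lower and 0 higher, where 13.4% of all genes tested were called in either direction with 5.77% lower and 7.67% higher. The called members comprised 24 of 78 nuclear and 2 of 13 mitochondrial genes. The fitted fold change was negative for 76 of 78 nuclear members, with a median of -0.23 on the log2 scale, or 0.854 of the WD WT EV level, and for 13 of 13 mitochondrial members, with a median of -0.50, while the median over all genes was 0.00. At an unadjusted p under 0.05, 52 members (57.1%) passed, against 30.3% of all genes. The changes of single members were small, at most 0.59 in size on the log2 scale among those called.

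The calls depended on the weights and on single libraries: 0 members were called by edgeR's quasi-likelihood test (31 at an unadjusted p under 0.05), 0 by limma without library weights, 3 by edgeR's exact test and 9 by DESeq2, and the mitochondrial median was then -0.17 by the quasi-likelihood test and -0.28 without weights. With library size alone in place of TMM 4 members were called and the nuclear median was -0.08 (56 of 78 negative), where the median of all genes was 0.16, and with 2 surrogate variables 0 were called and the medians were -0.09 for nuclear and -0.06 for mitochondrial members. Without WD WT EV replicate 2 or WD WT NAMPT replicate 3 there were 0 called members, without WD WT EV replicate 6 there were 4, and without WD WT NAMPT replicates 1, 2 or 6 there were 16, 7 and 43.

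**Figure D2:**
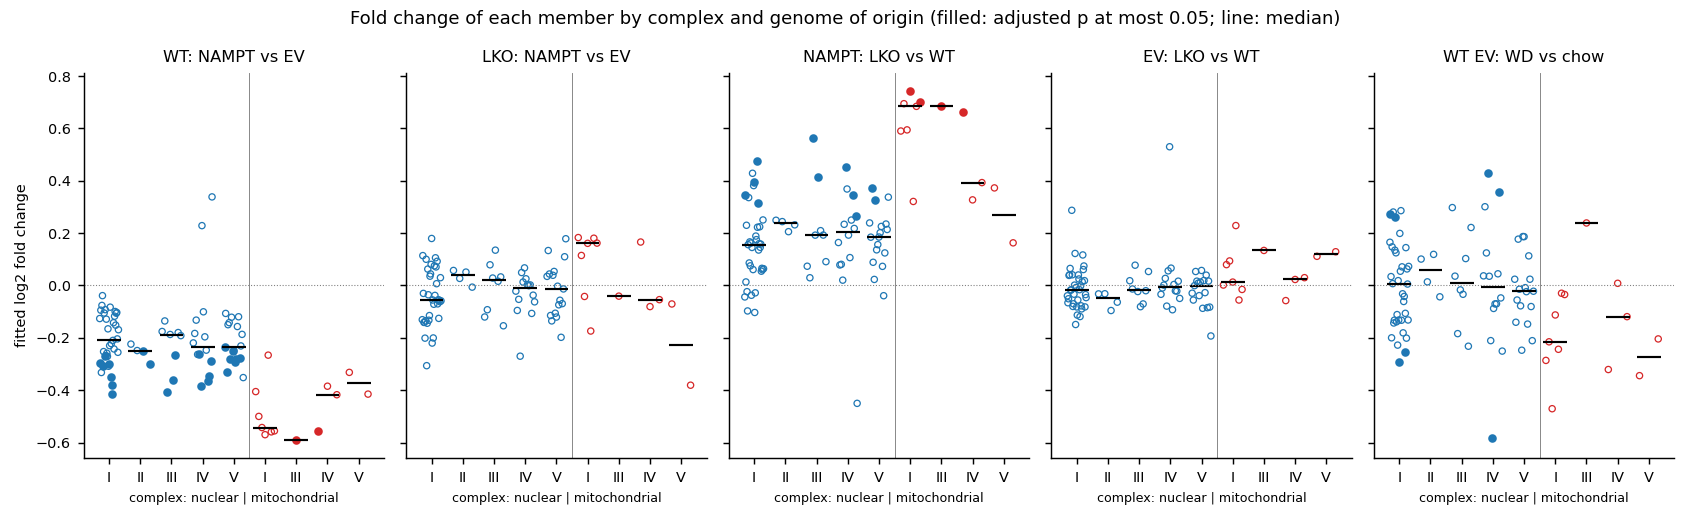
Fitted log2 fold change of each of the 91 members, by complex and genome of origin, in 5 comparisons of groups; filled points have an adjusted p of at most 0.05 (limma) and lines mark medians. In WD WT NAMPT against WD WT EV, 89 of 91 points lie below 0 and 26 are filled.

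Complex I, the NADH dehydrogenase, had 7 of 35 nuclear members called lower, with a median of -0.21 and all 35 negative. Ndufc1, a small accessory subunit (chr3:51404677-51408988, minus strand, GRCm38), had 46.5, 39.6, 37.0, 38.6, 50.3 and 65.5 CPM in WD WT NAMPT replicates 1 to 6. Its 6 WD WT EV libraries ran from 48.3 over a median of 55.9 to 60.2 CPM. Ndufc1 was thus below all WD WT EV libraries in 4 of 6 WD WT NAMPT libraries and above them in replicate 6, and it fell by 0.42 ± 0.11 (limma, adjusted p = 0.016). Ndufc2, its partner subunit, fell by 0.38 (adjusted p = 0.018), Ndufb8 by 0.35 (0.039) and Ndufa3 by 0.31 (0.045). Ndufa10 and Ndufb5 each fell by 0.30 (adjusted p 0.019 and 0.034), and Ndufa7 by 0.27 (0.038). The core subunits Ndufs1 (-0.21, adjusted p = 0.056) and Ndufv1 (-0.20, adjusted p = 0.18) were not called. None of the 7 mitochondrial genes of complex I passed, although their median was -0.54 and mt-Nd6 (-0.56, adjusted p = 0.054), mt-Nd4 (-0.57, 0.074) and mt-Nd5 (-0.56, 0.078) were near the threshold.

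In complex II, succinate dehydrogenase, both membrane anchor subunits were called and both catalytic subunits were not. Sdhc (chr1:171127165-171150603, minus strand) had 121.6, 116.6, 147.7, 158.5, 148.1 and 151.3 CPM in WD WT NAMPT and 160.3 to 186.3 (median 172.9) in WD WT EV. These groups did not overlap, and Sdhc fell by 0.25 ± 0.08 (limma, adjusted p = 0.032). Sdhd fell by 0.30 (adjusted p = 0.023). Sdha and Sdhb had fold changes of similar size, -0.22 (0.084) and -0.25 (0.076), so the difference between anchor and catalytic subunits lies in the calls more than in the sizes.

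In complex III, 3 of 8 nuclear members and mt-Cytb were called, all lower. Uqcrb, which binds coenzyme Q together with cytochrome b (chr13:66900617-66905378, minus strand), had 94.3, 62.5, 73.2, 76.05, 80.7 and 129.6 CPM in WD WT NAMPT and 89.7 to 115.0 (median 105.4) in WD WT EV. Replicates 2 to 5 lay below the WD WT EV range and replicate 6 above it, and Uqcrb fell by 0.41 ± 0.11 (limma, adjusted p = 0.018). The core protein Uqcrc2 (chr7:120635176-120659478, plus strand) ran from 104.4 over a median of 145.0 to 182.2 CPM in WD WT NAMPT, with 5 of 6 libraries below the lowest WD WT EV library, and fell by 0.36 ± 0.08 (adjusted p = 0.012). Uqcrfs1 fell by 0.26 (adjusted p = 0.035), and Uqcrc1 had -0.19 (0.11). The mitochondrial mt-Cytb (chrM:14145-15288, plus strand) had 12878, 6577, 7870, 9816, 11132 and 21089 CPM in WD WT NAMPT against 10749 to 18407 (median 15061) in WD WT EV. It was lower in 3 libraries and higher in replicate 6 than any WD WT EV library, and fell by 0.59 ± 0.18 in the weighted fit (adjusted p = 0.033).

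Complex IV, cytochrome c oxidase, had 5 of 14 nuclear members and 1 of 3 mitochondrial members called lower. Cox8a (chr19:7215158-7217616, minus strand), the liver form of a small membrane subunit, had 226.2, 216.0, 247.4, 262.8, 287.8 and 281.5 CPM in WD WT NAMPT and 302.7 to 359.9 (median 321.0) in WD WT EV. No library of one group overlapped the other, and Cox8a fell by 0.35 ± 0.09 (limma, adjusted p = 0.015). Cox6c (chr15:35925886-35938246, minus strand) had 199.4, 130.2, 176.2, 201.4, 201.0 and 253.6 CPM, against 199.5 to 280.5 (median 265.6) in WD WT EV. Its ranges overlapped in 3 libraries, with a fall of 0.38 ± 0.11 (adjusted p = 0.029). Cox7c fell by 0.36 (adjusted p = 0.018), Ndufa4 by 0.29 (0.018) and Cox6b1 by 0.26 (0.023). Cox4i1 (-0.22, 0.084), Cox5a (-0.18, 0.25), Cox6a1 (-0.26, 0.14) and Cox7a2l (-0.20, 0.078) were not called. The only nuclear members with a positive fold change were the isoforms Cox7a1 (0.23, adjusted p = 0.47) and Ndufa4l2 (0.34, adjusted p = 0.30), which were also among the lowest expressed. The catalytic mt-Co1 (chrM:5328-6872, plus strand) ran from 9470 over 13709 to 24904 CPM in WD WT NAMPT and from 13672 over 20002 to 25544 in WD WT EV, with a fall of 0.55 ± 0.19 (adjusted p = 0.048), and mt-Co2 had -0.38 (0.056).

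Complex V, the ATP synthase, had 7 of 17 nuclear members and 0 of 2 mitochondrial members called. The alpha subunit Atp5a1, part of the catalytic head, had 646.8, 616.0, 783.7, 852.0, 882.5 and 894.2 CPM in WD WT NAMPT and 902.0 to 994.7 (median 931.6) in WD WT EV. These groups did not overlap, and Atp5a1 fell by 0.23 ± 0.08 (limma, adjusted p = 0.042). Atp5h (chr11:115415689-115419962, minus strand), in the stalk that holds the catalytic head, likewise did not overlap, with 87.4 to 122.1 CPM against 123.5 to 175.9, and fell by 0.29 (0.042). The catalytic beta subunit Atp5b (chr10:128083273-128090391, plus strand) was also lower in all 6 libraries, 759.9 to 957.5 against 959.0 to 1048 CPM, but its weighted fold change was only -0.11 and it was not called (adjusted p = 0.27). The gamma subunit Atp5c1 fell by 0.33 (adjusted p = 0.018), Atp5j and Atp5f1 of the stalk by 0.28 each (0.021 and 0.019), Atp5l by 0.28 (0.048) and Atp5g2 by 0.25 (0.036). The other c subunit genes, Atp5g1 and Atp5g3, had -0.12 and -0.25 and were not called. Over all complexes, the groups did not overlap for 5 members (5.49%: Sdhc, Cox8a, Atp5h, Atp5a1 and Atp5b), all lower, against 0.960% of all genes tested, and 0.590% in that direction.

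**Figure D3:**
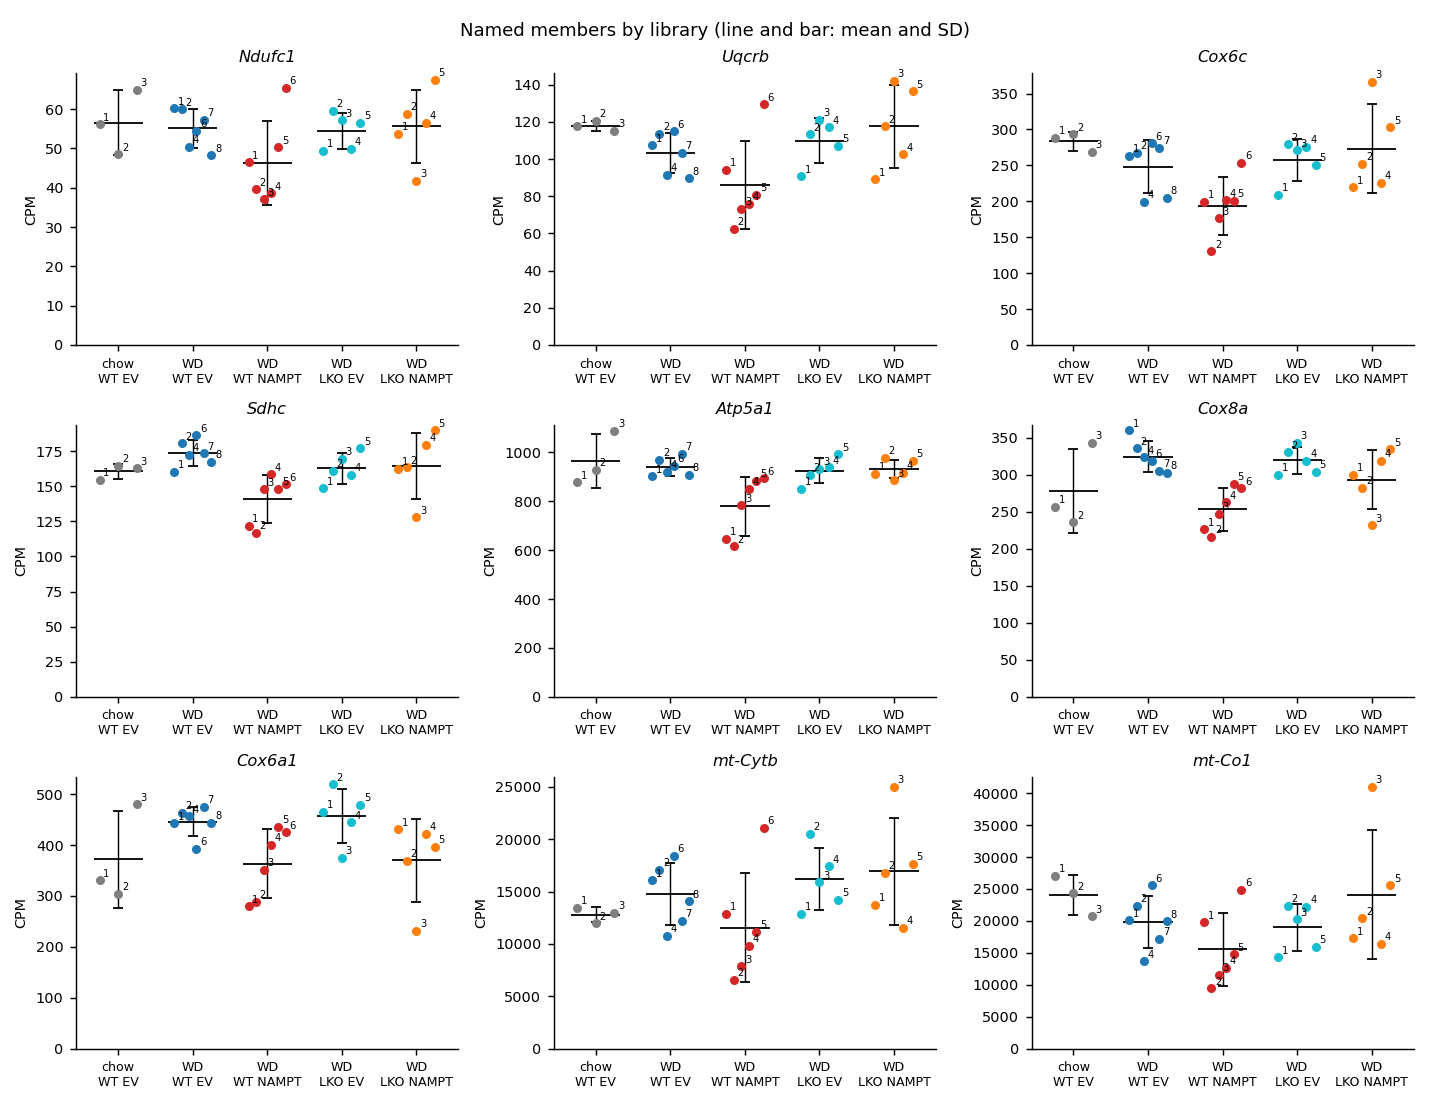
TMM-scaled CPM of 9 members in each library, with group mean and SD, replicate numbers beside the points and each axis starting at 0. For Cox8a the 6 WD WT NAMPT libraries (216.0 to 287.8 CPM) lie below the 6 WD WT EV libraries (302.7 to 359.9), while for Uqcrb and mt-Cytb WD WT NAMPT replicate 6 lies above the WD WT EV range.

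In scaled values, the 6 WD WT NAMPT libraries differed from each other more than those of the other groups. The mean log2 CPM of the nuclear members was 6.35, 6.28, 6.5, 6.62, 6.66 and 6.85 in replicates 1 to 6 (6.54 ± 0.21, SD, n = 6), against 6.67 to 6.90 (6.76 ± 0.09, SD, n = 6) in WD WT EV, so that 5 of 6 lay below the lowest WD WT EV library. The mean of the mitochondrial members was 10.24, 9.04, 9.31, 9.64, 9.78 and 10.75, with 3 libraries below the WD WT EV range of 9.67 to 10.61 and replicate 6 above it. In replicate 1, 33 of 78 nuclear members but 0 of 13 mitochondrial members were more than 0.5 log2 units below the WD WT EV mean, with Ndufs5 lowest at -1.40. In replicate 2 these were 38 nuclear and 13 mitochondrial members, and in replicate 3 only 2 nuclear but 13 mitochondrial members. Replicate 4 had 1 and 7, replicate 5 none of either, and replicate 6 none, with 8 mitochondrial members more than 0.5 above. By the group means, replicates 2, 3 and 4 lay below the WD WT EV range for both genomes, and replicates 1 and 5 for the nuclear members only. The nuclear values rest on the TMM scaling, whose factors were 0.922 to 1.29 in WD WT NAMPT and 0.915 to 1.01 in WD WT EV. As a share of unscaled counts, nuclear members took 1.06% to 1.203% in WD WT NAMPT and 1.13% to 1.30% in WD WT EV, with only replicate 1 below that range, and their SD was 0.053 and 0.063 percentage points. The mitochondrial members took 4.06% to 8.54% of the counts in WD WT NAMPT and 4.73% to 8.05% in WD WT EV.

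**Figure D4:**
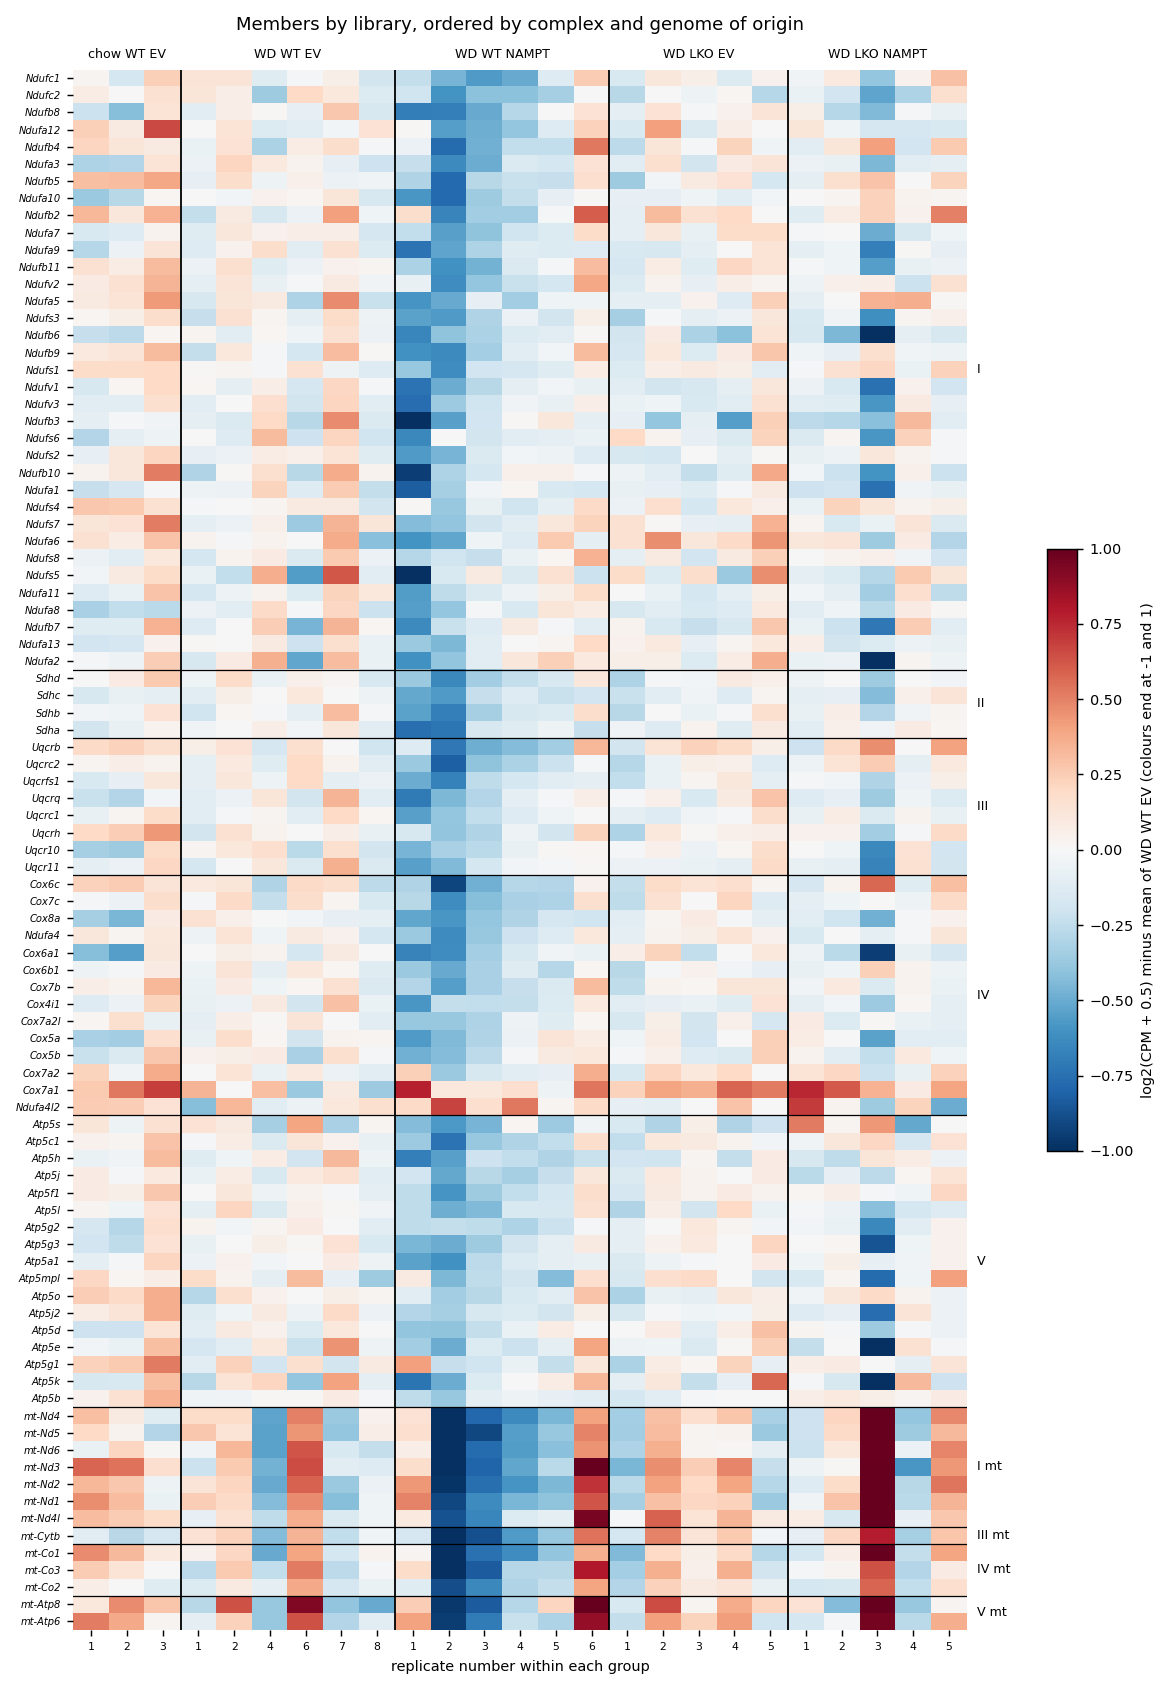
Each member's log2(CPM + 0.5) in each library minus its mean over the 6 WD WT EV libraries, members ordered by complex and genome of origin; colours end at -1 and 1. WD WT NAMPT replicate 2 is low for 38 of 78 nuclear and 13 of 13 mitochondrial members, and WD LKO NAMPT replicate 3 is low for 22 nuclear and high for 13 of 13 mitochondrial members, by more than 0.5.

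Markers of immune cells also differed between WD WT NAMPT and WD WT EV, in the opposite direction to the members. Of the 10 macrophage markers, 6 were called higher in WD WT NAMPT than in WD WT EV (Adgre1 0.91, Cd5l 0.91, Cd68 1.0, Csf1r 0.64, Lyz2 1.14 and Trem2 1.92 on the log2 scale) and 0 lower. Their summed level was 1059, 1069, 1042, 730.2, 586.2 and 337.1 CPM in WD WT NAMPT replicates 1 to 6, and 352.6 to 512.8 in WD WT EV, 386.9 to 525.5 in WD LKO EV, 366.7 to 835.6 in WD LKO NAMPT and 295.2 to 361.3 in chow WT EV. In this group replicate 6 had the lowest marker sum and the highest member levels, but replicate 1, with a sum of 1059 CPM, had the second-highest mitochondrial mean (10.2 log2 CPM). In WD LKO NAMPT, replicate 1 had a sum of 835.6 CPM and a nuclear mean of 6.73 log2 CPM, within the WD WT EV range of 6.67 to 6.90. Of the neutrophil markers 4 of 6 were kept (not Ly6g or Mpo) and 2 were called higher (Csf3r 1.28, S100a9 1.57), with a summed level of 3.50 to 26.1 CPM against 2.72 to 7.65. Of the stellate cell markers 3 of 6 were called higher. The proliferation markers Mki67 and Top2a (limma, adjusted p = 0.19 and 0.13) summed to 50.0, 91.1, 22.3, 12.8, 7.52 and 6.35 CPM in WD WT NAMPT replicates 1 to 6, against 5.40 to 22.5 in WD WT EV. Replicates 1 and 2, above every WD WT EV library, had the lowest nuclear means of the group, 6.35 and 6.28 log2 CPM. The 6 hepatocyte markers had a median change of -0.02 with 0 called. In whole liver, fewer cells of a type and less RNA per cell cannot be told apart, and the part of these cells in the lower subunit mRNAs was not tested.

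**Figure D5:**
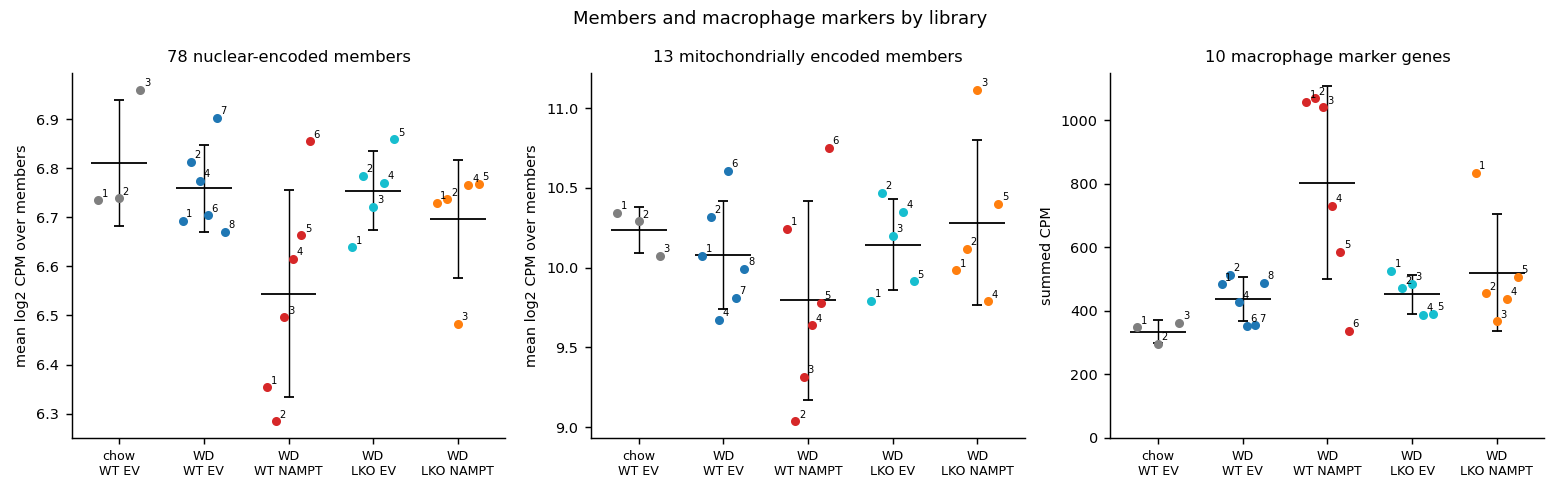
Mean log2 CPM over the 78 nuclear members (left) and 13 mitochondrial members (middle), and summed CPM of 10 macrophage markers (right), in each library; points carry replicate numbers, and lines and bars give mean and SD. In WD WT NAMPT, replicates 1 to 3 have the highest marker sums (1042 to 1069 CPM) and the lowest nuclear means (6.28 to 6.5).

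Genes that work with the subunits were counted by lists, and the median change was negative in each list but the nuclear regulators and the cytosolic ribosomal proteins. Lower in WD WT NAMPT were 3 of 16 assembly factors of complex I (Nubpl -0.42, Ecsit -0.40 and Acad9 -0.36), and 6 of 32 of complexes II to V, among them Cox16 (-0.42), Cmc1 (-0.38) and Bcs1l (-0.35), which inserts the Rieske protein. Of 18 electron carriers and enzymes of coenzyme Q synthesis, 6 were lower, with Coq8a at -0.83, Etfdh at -0.43 and Pdss2 at -0.38. Of 18 genes of the tricarboxylic acid cycle and pyruvate dehydrogenase, which supply NADH and succinate, 5 were lower (Dlat -0.55, Suclg2 -0.32, Sucla2 -0.31). Of 16 carriers and outer membrane genes 4 were lower, including the pyruvate carrier subunits Mpc2 (-0.39) and Mpc1 (-0.35), and the ADP/ATP carrier Slc25a4 was higher (0.55). Of 24 genes that maintain and transcribe mitochondrial DNA only Tfb2m was lower (-0.40). Of 14 nuclear regulators of mitochondrial genes only Myc was called, higher by 1.26, and the coactivator Ppargc1a had -0.26 (adjusted p = 0.33). The median change was -0.12 for 76 mitochondrial ribosomal proteins with 7 lower, and 0.04 for 85 cytosolic ribosomal proteins with 0 called. These counts stand beside 5.77% of all genes called lower.

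The same delivery of NAMPT in the mice labelled SIRT1 LKO was the second comparison. Of the 91 members, 0 were called between WD LKO NAMPT and WD LKO EV by limma, where 0.00711% of all genes were called. At an unadjusted p under 0.05 there were 2 members (2.20%), against 9.63% of all genes, and edgeR's tests and DESeq2 called 0, with 1 member each at that unadjusted p. The median was -0.03 for nuclear members, with 44 of 78 negative, and -0.04 for mitochondrial members. The smallest adjusted p was 0.43, for the complex I subunit Ndufa6 (-0.31 ± 0.13). Ndufc1 had 53.7, 58.8, 41.8, 56.5 and 67.5 CPM in WD LKO NAMPT and 49.4, 59.6, 57.2, 50.0 and 56.6 in WD LKO EV. Cox8a had 300.2, 282.3, 231.6, 319.0 and 334.4 CPM against 299.9, 330.2, 343.2, 319.1 and 304.1. Both genes overlapped between the groups. Non-overlapping groups occurred in 2 members (2.20%), Atp5b and Ndufa10, both higher with NAMPT, against 1.15% of all genes, and 0.505% in that direction.

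Replicate 3 of WD LKO NAMPT stood apart. Its nuclear members had the lowest mean of the group (6.48 log2 CPM), 22 of 78 were more than 0.5 log2 units below the WD WT EV mean, with the epsilon subunit Atp5e of complex V lowest at -1.71, and 13 of 13 mitochondrial members were more than 0.5 above it, with mt-Nd4 highest at 1.39. Mitochondrial members took 12.3% of its counts, against 5.41% to 8.02% in the other 4 libraries of its group. The weighted fit gave this library little weight, and with equal weights the mitochondrial median of the LKO comparison was 0.13, by edgeR's quasi-likelihood test 0.24.

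Whether the response to NAMPT differed between the genotypes was tested by the interaction, for which the fold change in WT mice was subtracted from the one in LKO mice. It uses the libraries of both preceding comparisons. With limma 0 of 91 members were called, where 0.00711% of all genes were, so the difference between a response in WT and none called in LKO was not itself past the threshold. At an unadjusted p under 0.05 there were 30 members (33%) and 21.2% of all genes, and there were 14 members by edgeR's quasi-likelihood test and 16 by DESeq2, neither of which called any. The fitted interaction was positive for 68 of 78 nuclear members, with a median of 0.20, and for 13 of 13 mitochondrial members, with a median of 0.55. With library size alone the nuclear median was 0.07, where the median of all genes was -0.15, and with 2 surrogate variables the mitochondrial median was -0.04, with 8 of 13 negative. The smallest adjusted p was 0.068, for Uqcrc2 (0.49 ± 0.12), followed by Ndufb5 (0.48 ± 0.13, adjusted p = 0.078), Ndufa10 (0.41 ± 0.12, 0.079) and Ndufc1 (0.49 ± 0.15, 0.094). Leaving out WD WT NAMPT replicate 6 gave 7 called members, replicate 5 gave 3, WD LKO NAMPT replicate 1 gave 4 and WD LKO EV replicate 4 gave 1.

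Between the NAMPT groups, 15 of 91 members (16.5%) were called higher in WD LKO NAMPT than in WD WT NAMPT and 0 lower, where 7.96% of all genes were called, 4.18% higher and 3.78% lower. At an unadjusted p under 0.05, 39 members (42.9%) passed, against 28.6% of all genes. This comparison uses the same WD WT NAMPT libraries as the first, so its values are no separate evidence on them. The called members were 11 nuclear and 4 mitochondrial genes, and the medians were 0.18 for nuclear members, with 70 of 78 positive, and 0.59 for mitochondrial members, with 13 of 13 positive. Uqcrb had 89.1, 117.6, 142.2, 102.6 and 136.5 CPM in WD LKO NAMPT, and rose by 0.56 ± 0.11 (limma, adjusted p = 0.014). All 5 of these values were above the WD WT NAMPT median of 78.4, though replicate 6 of WD WT NAMPT (129.6) lay among them. Ndufc1 (0.47, adjusted p = 0.022), Cox6c (0.45, 0.030), Uqcrc2 (0.41, 0.016) and Ndufb5 (0.40, 0.023) followed. Atp5c1 was higher by 0.37, Ndufa10 by 0.35, Cox7c by 0.34, Atp5f1 by 0.33, Ndufs1 by 0.31 and Ndufa4 by 0.27. The mitochondrial mt-Nd4 (0.74, adjusted p = 0.047), mt-Nd6 (0.70, 0.039), mt-Cytb (0.68, 0.035) and mt-Co1 (0.66, 0.042) were higher. The mt-Cytb values in WD LKO NAMPT, 11518 to 25007 CPM (median 16765), overlapped those of WD WT NAMPT. Only Atp5b had groups that did not overlap (1.10% of members, 1.39% of all genes), at 1007 to 1058 CPM, and it was not called (0.18, adjusted p = 0.088).

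These calls were also few by other methods: 0 by edgeR's quasi-likelihood test and by limma without library weights, 1 by edgeR's exact test and 5 by DESeq2. Without WD WT NAMPT replicates 2, 3, 4 or 6 there were 2, 0, 9 and 30 called members, and without WD LKO NAMPT replicates 1, 2, 3 or 5 there were 23, 0, 3 and 0. With 2 surrogate variables 0 were called and the mitochondrial median was 0.07, and with library size alone 8 were called and the nuclear median was 0.07 (52 of 78 positive), where the median of all genes was -0.12. Immune markers moved with this comparison too: 2 of 10 macrophage markers (Csf1r and Lyz2) and 1 of 4 neutrophil markers kept (Csf3r) were called lower in WD LKO NAMPT. The mean summed level was 520 against 804 CPM for macrophage markers and 7.62 against 15.1 CPM for neutrophil markers. For Mki67 and Top2a it was 16.2 against 31.7 CPM (limma, adjusted p = 0.74 and 0.91). For erythroid markers it was 1096 against 660 CPM (582.8 to 1387 against 322.5 to 1293 by library). Between WD LKO EV and WD WT EV the erythroid means were 1097 and 681 CPM. Their part in the result was not tested.

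The comparison of genotypes with the empty vector asked how mice labelled SIRT1 LKO differed from wild-type mice on the Western diet without NAMPT delivery. Here 0 of 91 members were called by limma, edgeR or DESeq2, where 0.00711% of all genes were called by limma, and at an unadjusted p under 0.05 there were 2 members (2.20%) by limma, which passed 6.33% of all genes, and 1 by each of the other tools. Groups overlapped for all 91 members, and did not for 0.590% of all genes. The medians were -0.02 for nuclear and 0.03 for mitochondrial members. The largest fitted differences were those of Cox7a1 (0.53 ± 0.19, adjusted p = 0.65), the low muscle isoform of complex IV, and Ndufa6 (0.29 ± 0.12, adjusted p = 0.70). The catalytic subunits differed by little, with Atp5b at -0.06 ± 0.06, Sdha at -0.03 ± 0.08 and mt-Co1 at -0.06 ± 0.18. For mt-Cytb, WD LKO EV ran from 12855 to 20514 CPM and WD WT EV from 10749 to 18407.

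The last comparison asked what the Western diet changed in wild-type mice with the empty vector. Of the 91 members, 7 were called, 4 higher (4.40%, against 10.1% of all genes) and 3 lower (3.30%, against 12.0%). The medians were -0.01 for nuclear members and -0.20 for mitochondrial members, of which 11 of 13 were negative and mt-Cytb (0.24) was positive. With 2 surrogate variables the direction turned: the mitochondrial median was 0.25 with 13 of 13 positive, and 13 members were called higher and 0 lower. Higher on the diet were 2 subunits of complex IV: Cox6a1 (chr5:115345642-115348981, minus strand), by 0.43 ± 0.12 (limma, adjusted p = 0.015), and Cox8a, by 0.36 ± 0.09 (0.0055). Cox6a1 had 330.5, 304.4 and 480.3 CPM in chow WT EV and 393.2 to 474.7 (median 450.3) in WD WT EV, and Cox8a had 256.9, 235.5 and 342.9 against 302.7 to 359.9. In both genes chow replicates 1 and 2 were below every WD WT EV library and replicate 3 was not. The complex I subunits Ndufa10 and Ndufa8 rose by 0.27 (0.019) and 0.26 (0.039).

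Lower on the diet was Cox7a1, by 0.58 ± 0.21 (limma, adjusted p = 0.046), with 1.69, 2.13 and 2.44 CPM in chow WT EV and 0.915 to 1.81 in WD WT EV. The complex I subunits Ndufb5 (chr3:32736990-32751566, plus strand) and Ndufs4 (chr13:114287795-114388094, minus strand) fell by 0.29 (0.029) and 0.25 (0.021). Ndufs4, needed for the assembly of the NADH-oxidising arm, had 63.4, 63.1 and 58.4 CPM on chow and 46.2 to 55.9 on the Western diet, without overlap. Groups did not overlap for 8 members (8.79%: Ndufb5, Ndufs1, Ndufs4, Ndufa8, Uqcrb, Uqcrh, Atp5o and Atp5g1), against 16.1% of all genes. Uqcrb was one of them but not called (-0.18, adjusted p = 0.25). Of 18 genes of the tricarboxylic acid cycle and pyruvate dehydrogenase, 5 were higher, where 10.1% of all genes were, among them Pdhb (0.41) and Pdha1 (0.39), and Fh1 was lower (-0.34). Among the 14 regulators Ppara was higher (1.04) and Nrf1 (-0.48) and Ppard (-1.74) were lower. Cell-type markers moved with the diet: 2 of 10 macrophage markers (Cd5l and Cd68) were called higher and 2 of 6 hepatocyte markers (Cps1 and Tat) lower. The mean summed level was 436.5 against 334.7 CPM for macrophage markers, with 4 of 6 WD WT EV libraries above every chow library, 55973 against 68047 CPM for hepatocyte markers, and 11.5 against 3.54 CPM for the proliferation markers Mki67 and Top2a, whose adjusted p by limma were 0.109 and 0.0731. Their part in the result was not tested. With 3 chow libraries the calls were fragile: 0 by edgeR's tests, DESeq2 and unweighted limma (8, 8, 9 and 8 at an unadjusted p under 0.05, against 18, or 19.8% of members, in the weighted fit, where 35.1% of all genes passed), 0 without chow replicate 1 or 2 and 11 without chow replicate 3.

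Promoters of the nuclear members were searched for the motifs of 4 factors known to act on mitochondrial genes, in the RefSeq windows (GRCm38.p6) from 250 bases before to 50 bases after a gene's start, on both strands. A window was found for 65 of 78 nuclear members. The palindromic NRF1 motif of 10 bases, in capitals below, occurred in 5 of them (7.69%: Atp5k, Cox6a1, Uqcrc1, Atp5g2 and Ndufa11), against 1.07% of 27025 genes. The ETS motif CCGGAAGT, bound by GABPA and related factors, occurred in 5 (7.69%: Ndufs3, Uqcrh, Uqcr11, Atp5h and Cox8a), against 4.31%. The YY1 motif AAGATGGC occurred in 10 (15.4%), against 3.19%, and the ESRRA motif TCAAGGTCA in 2 (3.08%: Atp5g3 and Sdhd), against 0.466%. Of the 22 members with a match, 9 were called lower in WD WT NAMPT (40.9%, against 24 of all 78 nuclear members, 30.8%), among them Atp5h, Atp5g2 and Atp5j, and 13 were not, among them Uqcrc1, Atp5g3 and Ndufs4. The 78 include these 22 members and genes without a window, so the shares do not compare members with and without a match. A match of letters does not show that a factor binds. The stretches of 80 bases below, from members called in any comparison, show the motif in capitals. Atp5g2, Atp5h and Atp5j were called lower in WD WT NAMPT. Cox6a1 was not, and was called higher on the Western diet. The stretches are Cox6a1 at chr5:115349076-115349155 (NRF1, bases -162 to -153 from the start), Atp5g2 at chr15:102671048-102671127 (NRF1, -42 to -33), Atp5h at chr11:115419920-115419999 (ETS, on the other strand, -39 to -32) and Atp5j at chr16:84835020-84835099 (YY1, -88 to -81), all genes on the minus strand.
Cox6a1: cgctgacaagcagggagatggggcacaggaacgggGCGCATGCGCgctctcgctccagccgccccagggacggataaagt
Atp5g2: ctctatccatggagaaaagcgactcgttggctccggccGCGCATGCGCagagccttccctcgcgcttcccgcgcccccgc
Atp5h: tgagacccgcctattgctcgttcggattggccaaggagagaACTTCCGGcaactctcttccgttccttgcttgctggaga
Atp5j: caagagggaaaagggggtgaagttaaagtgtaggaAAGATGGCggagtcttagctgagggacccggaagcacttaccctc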

How the data were processed

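The authors made counts per gene from poly-A selected liver RNA by aligning single reads of 50 bases to the mouse genome (GRCm38) with STAR and counting uniquely mapped, unambiguous reads with featureCounts, per the labels STAR 2.5.1a and featureCounts 1.4.6-p5, although the study's methods name other versions. They also deposited CPM and RPKM of the same genes, which followed from the deposited counts. Strandedness is not given in the sources used here. The treatment text of the labels names SIRT1 as the vector insert, whereas the titles and the series name NAMPT, and the titles were followed.

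Groups came from the titles. Genes over 1 CPM in at least 2 libraries were kept, and counts were scaled by TMM (edgeR 4.0.16) and fitted with limma 3.58.1 (voomWithQualityWeights, 1 mean per group, all 25 libraries, R 4.3.3), with Benjamini-Hochberg adjustment over 14065 genes. Levels per library are CPM after TMM scaling, on log2(CPM + 0.5) where logs were averaged. Alternatives were edgeR's quasi-likelihood and exact tests, DESeq2 1.42.0, no library weights, library size alone, library sizes without mitochondrial genes, other filters, only the groups compared, a replicate block, 2 surrogate variables (sva 3.50.0) and each replicate left out. Members and gene lists were chosen with earlier results of these data known. Members given with values were the mitochondrial genes, core subunits, isoforms and the 3 largest called rises and falls per comparison, with further called genes named for completeness, as were the genes whose groups did not overlap or whose libraries stood apart, chosen after their values were seen. Windows of 50 bases were matched among annotated transcripts of GRCm38. No 2 libraries were copies of each other. Library totals of 20166175 to 32937326 counts limit the precision of low members such as Cox7a1. Protein sequences were not used here.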

Additional observations from a re-analysis of the deposited data

Results flagged for a closer look

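A sample is listed here where, in a group of 4 to 10, its gap to the nearest other sample was larger than Dixon's 95% critical value. Of 176 groups of values tested, 11 met this, where chance alone gives about 1 in 20.

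Replicate 3 of WD LKO NAMPT met it in 7 measures. Its mean over the nuclear members was 6.483 log2 CPM, the lowest of its group, and nuclear members took 0.976% of its counts. Atp5g2 had 54.95 CPM in it (others 79.5 to 88.52) and Atp5g3 170.6 (others 301.9 to 320.6), while Ndufa10 had 173.4 (others 148.0 to 151.5), mt-Atp8 67.66 (others 24.2 to 36.27) and mt-Nd4l 216.9 (others 97.25 to 131.2). The low and the high members thus occurred in the same library, and the cause was not tested.

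The 4 other cases were single genes. Atp5g2 had 85.15 CPM in WD WT NAMPT replicate 6 (others 69.43 to 74.2), the library with the highest nuclear mean of its group. In WD LKO EV, Cox4i1 had 308.1 CPM (others 255.8 to 265.4) and Ndufv1 145.2 (others 118.3 to 125.5) in replicate 5, and Ndufa4l2 had 1.698 (others 1.201 to 1.303) in replicate 4.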

How the results depend on the processing

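The number of members called changed with most settings, and the direction of the mitochondrial medians turned with 2 surrogate variables in the diet comparison and the interaction. Between WD WT NAMPT and WD WT EV, where 26 members were called, the count was 0 by edgeR's quasi-likelihood test, without library quality weights and with 2 surrogate variables, 3 by edgeR's exact test, 9 by DESeq2 (8 shared with the 26), 4 with library size alone, 8 when genes of low count were kept and 5 with only the groups compared. Between WD LKO NAMPT and WD WT NAMPT (15), it was 0 by the quasi-likelihood test, without quality weights, with only the groups compared and with 2 surrogate variables, 1 by the exact test, 5 by DESeq2, 8 with library size alone and 3 with genes of low count kept. Between WD WT EV and chow WT EV (7), it was 0 by the quasi-likelihood test, the exact test, DESeq2 and without quality weights, 12 with library size alone, 1 with genes of low count kept and 13 with 2 surrogate variables. Leaving mitochondrial genes out of the library sizes gave 32, 15 and 7, and a filter on mean CPM 29, 15 and 10.

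The replicate numbers did not pair the samples, since correlations of same-numbered deviations between WD WT NAMPT and WD WT EV ran from -0.23 to 0.41 over 4 pairs, and with a replicate block the counts were 5, 2 and 4 in the same order. With replicates left out in turn, the counts ran from 0 to 43, 0 to 30 and 0 to 11, and from 0 to 7 for the interaction. Between WD LKO NAMPT and WD LKO EV, and between WD LKO EV and WD WT EV, 0 members were called by any of the tools and settings run (limma, edgeR and DESeq2), with 2 members each at an unadjusted p under 0.05 by limma. The extremes were 0 without WD WT EV replicate 2 or WD WT NAMPT replicate 3 and 43 without WD WT NAMPT replicate 6 in the first, 0 without WD WT NAMPT replicate 3 or WD LKO NAMPT replicates 2 or 5 and 30 without WD WT NAMPT replicate 6 in the second, 0 without chow WT EV replicates 1 or 2 and 11 without replicate 3 in the third, and 7 without WD WT NAMPT replicate 6 in the interaction.

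With library size alone, which moved the median of all genes to 0.16 between WD WT NAMPT and WD WT EV, the nuclear median was -0.08 (56 of 78 negative), and 0.07 in the interaction, where that of all genes was -0.15. With 2 surrogate variables the nuclear median was -0.09 and the mitochondrial median -0.06 in that comparison, 0.07 between WD LKO NAMPT and WD WT NAMPT, 0.25 between WD WT EV and chow WT EV and -0.04 in the interaction, and mt-Nd5 turned to 0.33 on the Western diet. The cause was not tested. For 40 of the members given with values, 2600 fold changes were computed in the settings other than a left-out replicate, over all comparisons. These 40 were the mitochondrial genes, core subunits, isoforms and largest called changes, without the further called genes named for completeness. Of the 2600 fold changes, 204 had another sign than the reported value, in all but 1 (mt-Nd5) without a call in either fit. Calls were lost in 225 and gained in 14. Over all settings, left-out replicates included, 60 of 91 members kept 1 sign between WD WT NAMPT and WD WT EV and 40 of 91 between WD WT EV and chow WT EV. The depth limits Cox7a1 and Ndufa4l2 most, and unique mapping limits the mitochondrial genes that share windows with nuclear copies, most of all the 5 with 98.0% or more shared.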
